A study of Bos taurus with 18 samples.

Results

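The prolactin window is the 1000000-base stretch of cattle chromosome 23 from position 34600000 to 35600000, around the position of the prolactin gene in the UMD assembly, taken here as 35100000. It held 157 of the 992284 single-nucleotide polymorphism (SNP) sites read in this series. Of the 27376 gene models, 3 (gene26863, gene26874 and gene26875) have at least 1 of those sites; models without a SNP site have no position in the files and could not be placed. Members were chosen by the position of their SNP sites, so a model needed at least 1 called site in the window. The window was read as a check of tissue identity, with libraries labelled pituitary set against libraries labelled hypothalamus.

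The 18 poly(A) RNA libraries came from 9 healthy Angus cows, none in heat, with a pituitary and a hypothalamus library from each. The 6 groups of 3 libraries were pituitary at 6 months (newly weaned), pituitary at 18 months (sexually mature), pituitary at 30 months (after a first calf), and hypothalamus at the same 3 ages. No treatment was given, and the labels do not say whether the anterior lobe of the pituitary was separated. Genotypes sorted the libraries into 9 pairs, each with a pituitary and a hypothalamus library of the same age and replicate number. The lowest genotype match within a pair was 99.3%, and the highest between pairs was 66.7%, at sites read at least 20 times in both. The replicates of a group were thus different cows. Gene counts summed to between 28724861 and 38036840 per library, and reads over SNP sites summed to between 3334980 and 7536307.

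Prolactin is a hormone of the lactotroph cells of the anterior pituitary. It acts on the mammary gland in milk synthesis, and dopamine from hypothalamic neurons holds its release in check. Its mRNA is among the most abundant of the anterior pituitary and is far scarcer in the hypothalamus, so it is a usual marker for telling these tissues apart. In cattle the gene belongs to an expanded family whose other members, the prolactin-related proteins and placental lactogen, are made mainly in the placenta. Only protein-coding genes were read in the RefSeq gene order of the ARS-UCD2.0 assembly. Among them, PRL lies between CSH2, which encodes placental lactogen, and HDGFL1, which is followed by SOX4, a transcription factor gene. On the CSH2 side follow the prolactin-related protein genes PRP3, PRP-VII, PRP9, PRP14 and PRP2. None of the deposited gene identifiers (0 of 27376) matched that table, so no model is given a gene name, and markers of pituitary, neuronal and glial cells could not be read.

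gene26874 was the only model with SNP sites within 25 kb of position 35100000. Along chromosome 23 the model numbers rose with position in 495 of 502 neighbouring pairs, so the numbers also give an order of the models. Libraries labelled pituitary did not carry an abundant transcript under gene26874, and neither did libraries labelled hypothalamus. The model is 893 bases long and had 16 counts among 293333783 in the 9 pituitary libraries, against 26 among 293253395 in the 9 hypothalamus libraries. The exact Poisson intervals (95%) were 9.15 to 25.98 counts in pituitary and 16.98 to 38.1 counts in hypothalamus, and they cover counting error only. In bulk tissue, fewer cells of a type and less RNA per cell cannot be told apart. How reads that match several members of a gene family were counted is not given in the sources used here.

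The counts of gene26874 in pituitary were 0, 1 and 0 at 6 months, 0, 0 and 3 at 18 months, and 6, 3 and 3 at 30 months. In hypothalamus they were 2, 1 and 2 at 6 months, 0, 9 and 3 at 18 months, and 5, 4 and 0 at 30 months. The model had counts in 5 of 9 pituitary and 7 of 9 hypothalamus libraries, the tissues overlapped throughout, and the single highest library was a hypothalamus one. In CPM, counts scaled to 1000000 gene counts in the library, the level was 0.0522 ± 0.0585 in pituitary and 0.0882 ± 0.0839 in hypothalamus (SD, n = 9 each). An exact permutation of the tissue labels, two-sided, gave p = 0.317.

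**Figure D1:**
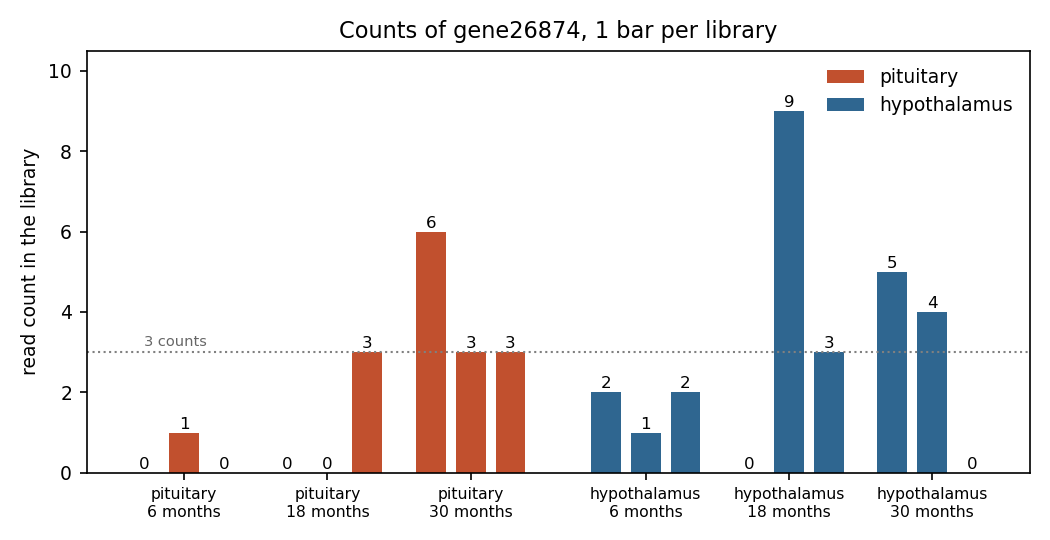
Read counts of gene26874 in each of the 18 libraries, 1 bar per library in the order of the replicate numbers, grouped by tissue and age. The pituitary bars reach 6 counts and the hypothalamus bars reach 9, out of at least 28724861 counts in a library; the dotted line marks 3 counts.

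Set against the other models, the level was low in both tissues. By mean CPM, 21624 of 27376 models (79.0%) were higher in pituitary and 20922 (76.4%) were higher in hypothalamus. The median model had 3.76 CPM in pituitary and 3.66 CPM in hypothalamus, and the highest had 7723 CPM in pituitary and 10766 CPM in hypothalamus. On the length-scaled FPKM scale, gene26874 averaged 0.0338 in pituitary and 0.0633 in hypothalamus, and its highest library had 0.118 FPKM in pituitary and 0.204 FPKM in hypothalamus.

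In edgeR's quasi-likelihood fit over all gene models, no member passed the expression filter, so 0 of the 3 members were tested among 19707 models. In that fit 0 models (0%) differed between tissues at an adjusted p under 0.05. At an unadjusted p under 0.05 there were 1010 models, and DESeq2 called 88 of 19552. Without the filter, gene26874 had a log2 fold change of pituitary over hypothalamus of -1.12 (SE 1.01, edgeR adjusted p = 1), and 0 of 25402 models (0%) were called. With so few reads that fold change depends on the prior count.

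gene26863 and gene26875 were at 0 counts in all 18 libraries. They are 1040 and 1991 bases long. A count of 0 allows up to 3 counts over the 9 libraries of a tissue, which is 0.0102 CPM in pituitary and 0.0102 CPM in hypothalamus. Between the numbers of these outer models lie 6 further models in the count table, and 4 more numbers that have no row. Of the 6, 5 were also at 0 in all 18 libraries. The remaining one, gene26873 (1130 bases), had 0 counts in every pituitary library, and in hypothalamus it had 3 and 8 counts in replicates 2 and 3 at 6 months and 0 elsewhere. Over the whole table, 1974 of 27376 models (7.21%) were at 0 in every library.

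No difference of gene26874 with age passed the test in pituitary. In pituitary the mean CPM of gene26874 was 0.0111 at 6 months (SD 0.0193), 0.0295 at 18 months (SD 0.0510) and 0.116 at 30 months (SD 0.0362), with 3 cows at each age. All 3 pituitary libraries at 30 months lay above all 6 younger ones in CPM, but not in counts. Replicates 2 and 3 at 30 months and replicate 3 at 18 months each had 3 counts. Their order, 0.0941 and 0.0962 against 0.0884 CPM, comes only from the library totals. The smallest two-sided p that an exact permutation of 3 against 3 libraries can give is 0.1. In the filtered fits within pituitary no member was tested, and edgeR called 1 of 18555 models (0.00539%) for 18 over 6 months, 1 (0.00539%) for 30 over 6 months and 0 (0%) for 30 over 18 months. In the unfiltered fit, the log2 fold change of 30 over 6 months was 3.04 (SE 1.96, edgeR adjusted p = 1), where 1 of 24254 models (0.00412%) was called. For 30 over 18 months it was 1.62 (SE 1.85, adjusted p = 0.803; 0% called), and for 18 over 6 months 1.42 (SE 1.89, adjusted p = 0.765; 0.00412% called), again by edgeR. The 30-month total was 12 counts and the 6-month total was 1.

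In hypothalamus no difference with age passed the test. The 18-month mean was the highest, and it was carried by replicate 2 with 9 counts, beside 0 and 3 counts in the other 18-month libraries. The mean CPM was 0.0529 at 6 months (SD 0.0188), 0.120 at 18 months (SD 0.133) and 0.0919 at 30 months (SD 0.0816), with 3 cows at each age. The edgeR log2 fold changes were 1.09 for 18 over 6 months (SE 1.74, adjusted p = 0.857), -0.38 for 30 over 18 months (SE 1.71, adjusted p = 1) and 0.71 for 30 over 6 months (SE 1.74, adjusted p = 1). In each of these 3 fits 0 of 24483 models (0%) were called. Whether the age differences of the 2 tissues differ was not tested for this model.

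The SNP table gave a second readout of the same models. Its depth is a count of reads at sites where some library carries a variant, so a transcribed stretch without a variant leaves no trace in it. gene26874 had 2 sites, both annotated as synonymous coding changes. The A-to-G site at 35105386 (codons tcT and tcC) was read 2 times, in pituitary at 18 months, replicate 3. The G-to-C site at 35106227 (codons ctC and ctG) was read 2 times, in hypothalamus at 30 months, replicate 2. Neither site had a called genotype in any of the other 17 libraries.

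The outer models had 1 site each. The site upstream of gene26863, at 34607344, had 2 reads in hypothalamus at 6 months, replicate 1. The site downstream of gene26875, at 35435752, had 2 reads in hypothalamus at 6 months, replicate 2. No pituitary library had a called genotype at either site. Within 100 kb of 35100000 there were 7 sites in all, and 0 were annotated as nonsynonymous, stop or splice changes. Summed over the sites of each model, 0 of the 3 members passed the expression filter among 13784 models with sites, and edgeR called 0 of those models (0%; 501 at an unadjusted p under 0.05).

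The reads of the window lay elsewhere, in a run of sites beyond the gene26874 sites. The run holds the 136 sites from 35202788 to 35236722, a span of 33935 bases in which no gap between sites exceeds 5000 bases, and it was delimited after the reads were seen. It took 4857 of the window's 4966 reads (97.8%). All of its sites carry the label Intergenic in place of a gene model. The effect given is UNKNOWN for 126 of them, and all 128173 sites with that effect in the table are labelled Intergenic. The 131 window sites with that effect lie from 35152134 to 35234585. The run is thus assigned to no gene model, but the label does not show that no gene lies there. The source of its reads was not identified.

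**Figure D2:**
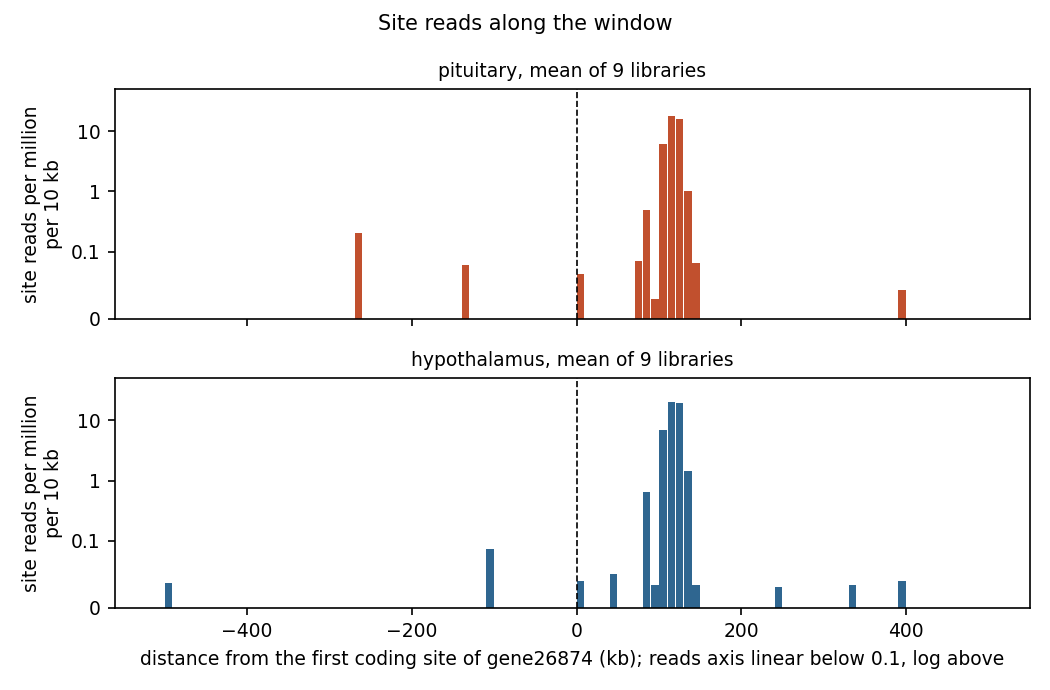
Reads over SNP sites along the window, as the sum of site means in RPM (reads per 1000000 site reads of the library) per 10 kb, in 9 pituitary libraries (above) and 9 hypothalamus libraries (below), against distance in kb from the first coding site of gene26874 (dashed line). The vertical axis is linear below 0.1 and logarithmic above; in both tissues nearly all reads lie in the run of 136 sites to the right of the dashed line.

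Outside the run were 21 sites with 109 reads in all. Of these sites, 16 were read in a single library, and no library read any of them more than 8 times. In RPM, reads per 1000000 reads over all SNP sites of the library, the window outside the run had 1.04 ± 0.769 in pituitary and 1.07 ± 0.691 in hypothalamus (SD, n = 9 each; two-sided exact permutation p = 0.948).

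The whole window did not differ detectably between the tissues. In pituitary, it had 42.3, 59.4 and 9.28 RPM at 6 months, 138, 1.54 and 24.0 at 18 months, and 46.5, 0.352 and 53.7 at 30 months. In hypothalamus, it had 58.4, 112 and 1.21 at 6 months, 76.0, 4.97 and 34.8 at 18 months, and 64.8, 30.5 and 60.05 at 30 months. The 2 tissues overlapped over nearly their whole range, and each held libraries close to 0. The mean was 41.6 ± 42.4 in pituitary and 49.2 ± 35.2 in hypothalamus (SD, n = 9 each), a difference of -7.56 RPM (two-sided exact permutation p = 0.688).

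Both libraries of a cow could be set side by side. Pituitary exceeded hypothalamus in 2 of 9 cows, and the mean difference within cows was -7.56 RPM (SD 31.3, n = 9; exact sign-flip permutation p = 0.480). The cows that exceeded were the 6-month replicate 3, with 9.28 in pituitary and 1.21 in hypothalamus, and the 18-month replicate 1, with 138 in pituitary and 76.0 in hypothalamus. Without the 18-month pituitary replicate 1 the difference between tissues was -19.6 RPM, the widest among the libraries left out in turn (exact permutation p = 0.205).

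**Figure D3:**
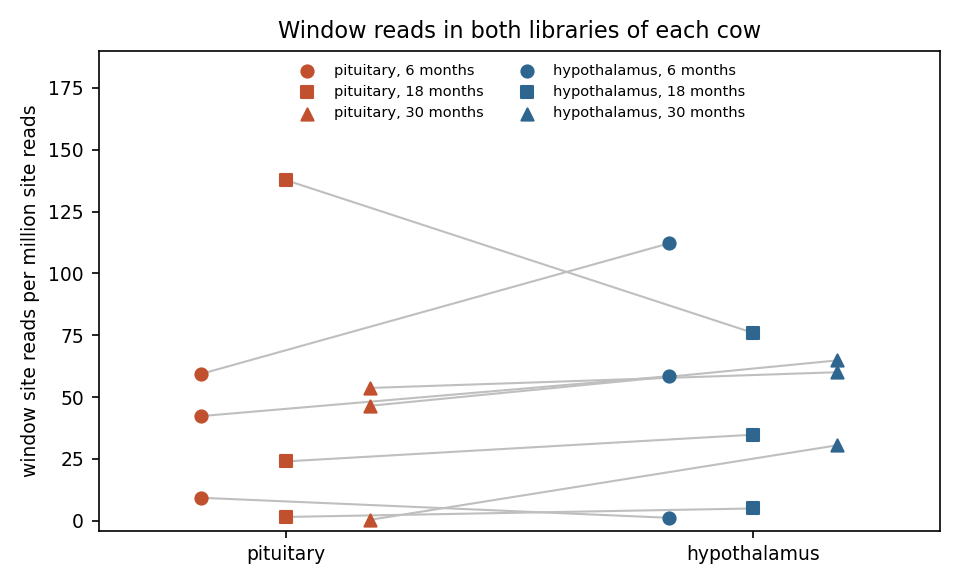
Window site reads in RPM in the pituitary and the hypothalamus library of each of the 9 cows, 1 grey line per cow, with marker shape giving the age. The line runs downward from pituitary to hypothalamus in 2 cows and upward in 7, and the highest point is the 18-month pituitary replicate 1 at 138.

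Among all 1 Mb windows the prolactin window lay below the median in both tissues. In edgeR's fit over 2501 windows tiled along the chromosomes, its log2 fold change of pituitary over hypothalamus was -0.24 (SE 0.82, adjusted p = 0.996). The approximate 95% interval of that log2 fold change, with 12 residual degrees of freedom, ran from -2.02 to 1.55. edgeR called 0 of the 2501 windows (0%; 108 at an unadjusted p under 0.05), and DESeq2 called 1 of 2683. Of the 2687 windows with sites, 25.5% had a lower mean than the prolactin window in pituitary, and 26.5% in hypothalamus. Its 41.6 RPM in pituitary stood against a median window at 203, and its 49.2 in hypothalamus against a median at 205. It held 157 sites, against a median of 297 per window.

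**Figure D4:**
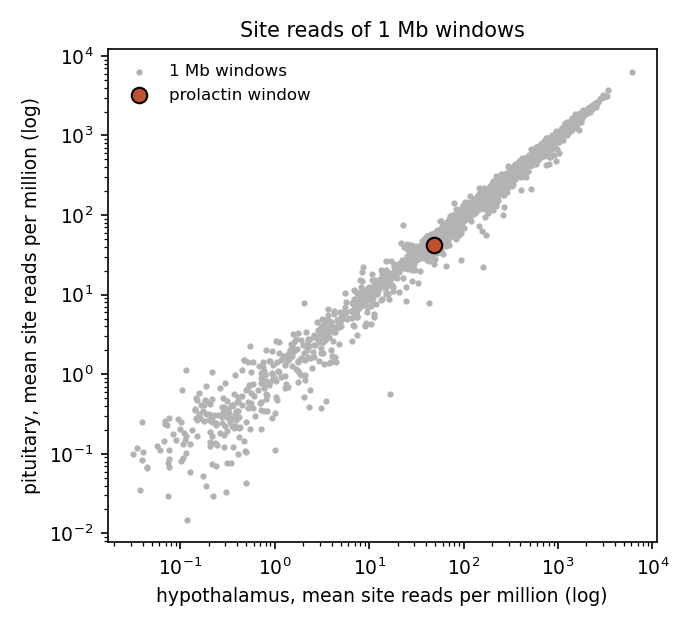
Mean site reads, in RPM, of each 1 Mb window over 9 pituitary libraries (vertical, log scale) against 9 hypothalamus libraries (horizontal, log scale), for the 2673 windows with reads in both tissues. The prolactin window, the large point at 41.6 in pituitary and 49.2 in hypothalamus, lies within the band of the other windows.

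At a finer scale, only 1 of the 10 bins of 100 kb passed the expression filter. That bin starts at 35200000 and contains the run, and pituitary over hypothalamus stood there at -0.24 on the log2 scale (SE 0.85, edgeR adjusted p = 1; 0 of 13420 bins called, 0%, with 521 at an unadjusted p under 0.05). DESeq2 called 10 of 16007 bins. The bin that starts at 35100000 and contains gene26874 had 7 sites and 75 reads. It had 0.634 ± 0.499 RPM in pituitary and 0.762 ± 0.559 in hypothalamus (SD, n = 9 each), and 62 of its reads fell on a single intergenic site at 35193760.

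Within the run, single sites were shallow. The highest depth of any site in any library was 25 reads, against 869 for the deepest site of the whole table. The site with most reads, a T-to-C site at 35229637, had 157 reads in 14 of 18 libraries, with 1.24 RPM in pituitary and 1.62 in hypothalamus. In pituitary it was read 8, 9 and 4 times at 6 months, 25, 0 and 0 times at 18 months, and 7, 0 and 14 times at 30 months. In hypothalamus it was read 9, 22 and 0 times at 6 months, 20, 3 and 3 times at 18 months, and 17, 6 and 10 times at 30 months. High and low libraries occurred in both tissues at this site, as for the window.

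The other 4 sites with the highest mean reads lay within 5000 bases of that one. The T-to-C sites at 35234437 and 35230252 had 1.25 and 0.986 RPM in pituitary, against 1.48 and 1.48 in hypothalamus. The A-to-G sites at 35234581 and 35234585 had 0.990 and 0.975 in pituitary, against 1.19 and 1.19 in hypothalamus. These adjacent sites share reads and are not separate measurements. Over the run, the pituitary mean was higher at 42 sites and the hypothalamus mean at 94 of the 136 sites.

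Reads of the run differed widely among libraries of a tissue, and in some cows between the 2 tissues of the cow. The run had 40.6 ± 42.0 RPM in pituitary and 48.1 ± 34.7 in hypothalamus (SD, n = 9 each; exact permutation p = 0.685). At 18 months, replicate 2, pituitary had 0 of its 5188848 site reads in the run, where it had no called genotype. That 0 sets no upper limit on its level. The hypothalamus library of the same cow had 21 reads. At 30 months, replicate 2, pituitary had 2 reads in the run and hypothalamus had 164. At 6 months, replicate 3, pituitary had 54 reads and hypothalamus had 6.

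Low run levels occurred beside a low share of intronic reads in some libraries and not in others. Over all sites, the intron share of site reads was 19.9% ± 3.66 in pituitary and 18.6% ± 3.20 in hypothalamus (SD, n = 9 each; exact permutation p = 0.451). In hypothalamus, the 3 libraries with the lowest intron shares, 13.7% at 6 months replicate 3, 13.7% at 18 months replicate 2 and 16.2% at 30 months replicate 2, were also the 3 with the lowest run levels. In pituitary, 18 months replicate 2 and 30 months replicate 2 had the lowest run levels at intron shares of 20.1% and 19.9%, and the library with the lowest intron share, 10.6% at 18 months replicate 3, had 22.2 RPM in the run. Without the 4 libraries under an intron share of 17%, the window difference was -23.8 RPM (exact permutation p = 0.280, 8 pituitary and 6 hypothalamus libraries). That limit was not planned. It takes out the 3 hypothalamus libraries with the lowest run levels, so a wider difference follows from the choice itself. The part of the intron share in these levels was not tested.

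**Figure D5:**
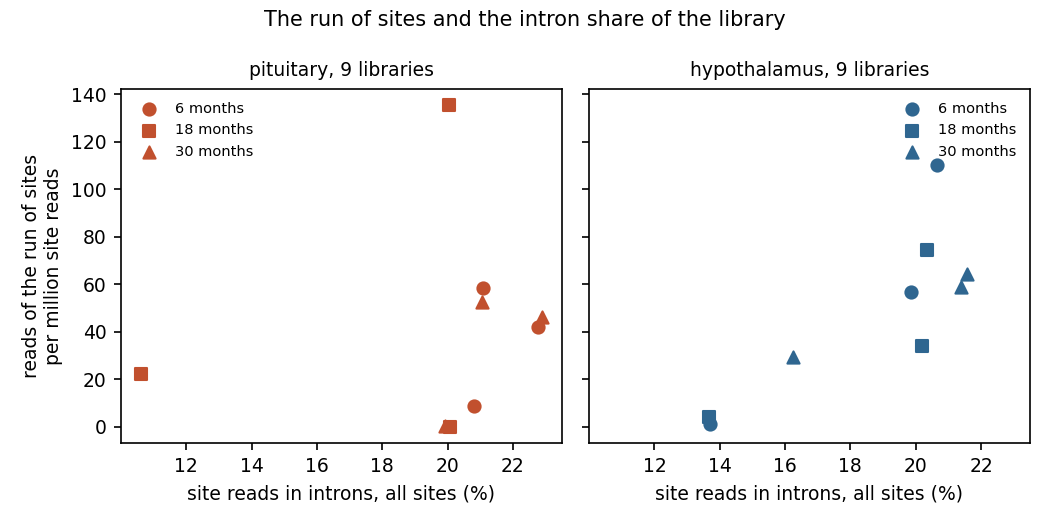
Reads of the 136-site run, in RPM, against the percent of all site reads that lie in introns, 1 point per library, pituitary at left and hypothalamus at right, marker shape by age. The 3 hypothalamus libraries at 13.7% to 16.2% are the lowest of their panel, while the 2 pituitary libraries at or near 0 stand at 19.9% and 20.1%.

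The window's site reads did not change with age beyond the spread of the cows. In pituitary, the mean RPM was 37.01 at 6 months (SD 25.5), 54.4 at 18 months (SD 73.0) and 33.5 at 30 months (SD 28.9), from 3 cows each. In hypothalamus, it was 57.2 at 6 months (SD 55.5), 38.6 at 18 months (SD 35.7) and 51.8 at 30 months (SD 18.6), also from 3 cows each. The edgeR log2 fold changes in pituitary were 0.59 for 18 over 6 months (SE 1.45, adjusted p = 0.862), -0.73 for 30 over 18 months (SE 1.45, adjusted p = 0.856) and -0.14 for 30 over 6 months (SE 1.45, adjusted p = 1). Each of these 3 fits called 0 of 2463 windows (0%), with 366, 225 and 48 at an unadjusted p under 0.05.

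In hypothalamus the window's log2 fold changes were -0.56 for 18 over 6 months (SE 1.14, edgeR adjusted p = 0.845), 0.43 for 30 over 18 months (SE 1.14, adjusted p = 1) and -0.13 for 30 over 6 months (SE 1.14, adjusted p = 0.982). Each fit called 0 of 2471 windows (0%), with 294, 53 and 121 at an unadjusted p under 0.05. The intervals were wide, from -2.96 to 4.13 for 18 over 6 months in pituitary and from -3.35 to 2.23 in hypothalamus, with 6 residual degrees of freedom. Changes of several fold with age were therefore not detectable in the window. Leaving out the 18-month pituitary replicate 1 turned the pituitary value for 18 over 6 months to -1.44 and that for 30 over 18 months to 1.30.

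Insertions and deletions, from a separate table, fell in the same place. The window held 19 of 112197 such sites, 13 insertions and 6 deletions, and 16 of them lay within the run. They had 274 reads in pituitary and 378 in hypothalamus. Hypothalamus had more reads at 14 of them and pituitary at 4. The deepest, an insertion at 35229378, had 51 reads in pituitary and 79 in hypothalamus, and none was assigned to a gene model.

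Pooled over cows, genotypes called in the window were more often equal within a cow than between cows. Of 411 comparisons at sites called in both libraries of a cow, 375 (91.2%) gave the same genotype, against 2873 of 4628 (62.1%) between libraries of different cows. One cow, replicate 1 at 6 months, carried non-reference calls at 67 of 74 sites called in pituitary and 67 of 88 in hypothalamus. In the other 8 cows non-reference calls numbered 0 to 39 in pituitary and 1 to 43 in hypothalamus. Among the cows with at least 15 sites called in both libraries, the share of equal genotypes ran from 66.7% to 98.8%.

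gene26874, the only model with SNP sites near the position of the prolactin gene, had at most 6 counts in a library labelled pituitary and at most 9 in a library labelled hypothalamus. Models that could not be placed may also lie there, and their counts are not part of these values. No test of the window's site reads, its bins or the gene models with sites in it separated the tissues. The window did not stand apart in this, as edgeR called 0 of 19707 gene models, 0 of 2501 windows and 0 of 13420 bins between tissues. No member passed the filter in the fit of gene counts, and gene26874 was tested only without it. The level that the background describes for prolactin in the anterior pituitary was not measured under gene26874. No source used here pairs gene26874 with a gene name, and the cause of the low level was not tested.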

How the data were processed

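Per the submitters' processing notes, HISAT2, StringTie, GATK and DESeq were used, with no role given; versions, build and annotation are not given in the sources used here. The deposited gene table holds raw read counts, and the authors' second table holds FPKM. Per the file headers, the deposited SNP and indel tables hold genotypes and depths, which are counts of reads per site. Depths of homozygous-reference calls pile up at 2 reads (37.5% of such calls, 24.6% of other calls) and at 7 reads (9.70% and 3.82%). They also rise at 20 reads (2.04% and 0.738%, against 0.261% and 0.783% at 19 reads). That depth is also the lowest used to match genotypes between libraries. Many such depths are thus not exact read numbers. In the window 63.8% of 810 such calls, and 33.5% of 349 others, stand at 2 or 7. Coordinates are printed as deposited. Chromosome names are those of the UMD assembly; the headers name no build. Columns were mapped by sample code.

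Depths were set to 0 where a library had no called genotype. They were summed over the window, 1 Mb windows, 100 kb bins and gene models, and scaled to 1000000 site reads of the library (RPM). All features were fitted with edgeR 4.0.16 (limma 3.58.1, R 4.3.3; TMM, filter by group, Benjamini-Hochberg adjusted p under 0.05). A tissue difference is the mean over ages, and ages were fitted within tissue. Each edgeR SE is the absolute log2 fold change over the square root of the F statistic of its test. Intervals of log2 fold changes used that SE and the residual degrees of freedom only, so both are approximate. The fits were tested on simulated data. Single values were compared by two-sided exact permutation (SciPy 1.17.1). The numbers pair the libraries, since same-numbered libraries of an age share genotypes; the fit with the cow as a block was an alternative. Others were RLE factors, no filter, DESeq2 1.42.0, limma-trend on log2 FPKM, site filters and each library left out. Named members were the models nearest 35100000 or highest by reads, here all 3, and named sites those within 25 kb of it and the 5 highest. gene26873, the indels, the run, the limit of 17% on the intron share and the sites at 35193760 and 35229378 were chosen after values were seen. Members and lists were chosen with earlier results of these data known. P-values of age measure the spread between cows. The main tissue fits and the permutations of tissue labels ignore the pairing, so their p-values mix spread between and within cows. The sign-flip test and the fit with the cow as a block use differences within cows. Marker lists for cell types were not run, since 0 identifiers matched gene symbols. No sequence is printed.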

Additional observations from a re-analysis of the deposited data

Results flagged for a closer look

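Of 10 sets of 9 libraries examined, 3 held a library far from the other 8, judged by its gap to the next value as a share of the range (limit 0.493); chance gives about 1 in 20. Window site reads in pituitary at 18 months, replicate 1, were 138 RPM (reads per 1000000 site reads), and the next highest pituitary library had 59.4 (share 0.570). The run of sites gave the same library, at 135 RPM against 58.2 (share 0.570), and these values share nearly all reads. The intron share of site reads in pituitary at 18 months, replicate 3, was 10.6%, and the next lowest was 19.9% (share 0.759).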

How the results depend on the processing

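Of 298 alternatives to 18 results, 285 left the result the same, 13 turned the direction and 0 passed the threshold. All 13 left out a library. The results for gene counts, 100 kb bins and site reads per gene model are numbers of members called. These were 0 in every setting and have no direction to keep. Where the filter left no member to test, as in the filtered fits of gene counts, that 0 was fixed in advance. Over the libraries left out in turn, the log2 fold change between tissues ran from -0.92 to 0.074 for the window and from -0.95 to 0.079 for the bin of the run, and the difference in window RPM from -19.6 to 0.30. For the window with age, it ran in pituitary from -1.44 to 1.16 (18 over 6 months), -1.30 to 1.30 (30 over 18) and -0.67 to 0.43 (30 over 6), and in hypothalamus from -1.50 to 0.39, -0.093 to 1.35 and -0.72 to 0.81. With the cow (replicate number) as a block, the window stood at -0.51 (edgeR adjusted p = 0.819), the bin of the run at -0.60 (adjusted p = 0.981) and unfiltered gene26874 at -1.12, and no call changed. Counts over all gene models moved: DESeq2 called 88 between tissues, against 0 by edgeR, and for 18 over 6, 30 over 18 and 30 over 6 months it called 334, 119 and 25 in pituitary (edgeR 1, 0 and 1) and 94, 13 and 44 in hypothalamus (edgeR 0, 0 and 0); limma-trend on log2 FPKM called 0 to 5. DESeq2 called 14 models by site reads between tissues, against 0 by edgeR. None was a member. Without pituitary 18 months replicate 1, edgeR called 40 gene models and 69 windows for 18 over 6 months in pituitary, and 7 gene models and 19 windows for 30 over 18 months, with 0 members among them; no other library left out gave over 3 calls. Keeping only sites called in all 18 libraries left 0 window sites and no value. Depth limits the members: all 3 lie under the expression filter, and 7 window sites reached 10 reads in 3 libraries.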

Other observations

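Of the 157 window sites, 33 were A-to-G and 44 T-to-C changes, together 49.04%, against 39.7% over all sites; 40 were G-to-A or C-to-T, and 40 were transversions. At heterozygous calls in the window, 41.1% of the reads carried the alternative allele in pituitary (41 calls) and 50.9% in hypothalamus (51 calls); adjacent sites share reads, and the difference was not tested.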
